A study of Homo sapiens with 18 samples.

Results

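The transcripts of 9 established p53 target genes were followed in human cell lines kept in normoxia or hypoxia. The genes are CDKN1A, BTG2, MDM2, BBC3, BAX, FAS, GDF15, ZMAT3 and RRM2B. They were chosen by name, and all 9 are among the 23106 genes counted in each of the 18 samples. Every one of the 9 passed the filter on low counts in every cell line.

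p53 is a transcription factor that is kept scarce in unstressed cells because MDM2, itself a product of a p53 target gene, marks it for destruction. DNA damage and other stresses break this loop, and p53 then switches on genes that stop the cell cycle, repair DNA or kill the cell. CDKN1A encodes p21, an inhibitor of cyclin-dependent kinases, and BTG2 is an antiproliferative gene that promotes mRNA deadenylation. BBC3 encodes PUMA, a death-promoting protein that carries the BH3 domain alone, BAX encodes a protein that opens the outer mitochondrial membrane, and FAS encodes a death receptor at the cell surface. GDF15 is a secreted stress hormone, ZMAT3 encodes an RNA-binding zinc finger protein, and RRM2B encodes the p53-inducible small subunit of ribonucleotide reductase, the enzyme that supplies deoxynucleotides. Hypoxia acts on transcription chiefly through hypoxia-inducible factor (HIF), whose α-subunit is stabilised when oxygen falls.

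HKC-8 is a line from the kidney proximal tubule, RCC4+VHL is a kidney cancer line labelled as carrying the von Hippel-Lindau gene VHL, whose product targets HIF-α for destruction in oxygenated cells, and HepG2 is a hepatocellular cancer line. Each line gave 3 normoxic and 3 hypoxic samples, 6 groups in all. Hypoxia was 0.5% oxygen for 16 h in HKC-8 and HepG2 cells, and 1% oxygen for 24 h in RCC4+VHL cells, by the samples' characteristics. The titles mark all RCC4+VHL samples as replacements, and in HKC-8 cells they name 21% oxygen for normoxia but 0.1% for hypoxia, so the labels conflict on the HKC-8 exposure. A figure legend of the study gives 0.5% for 16 h for the RNA sequencing of each line, naming RCC4. The RCC4+VHL exposure is thus uncertain as well. The labels do not say whether replicates came from separate cultures, so p-values measure only the spread between these samples, and each cell line stands for itself alone.

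Sequence matching the p53 site was present near the start of most of these genes. A p53 site is a pair of half-sites of 10 bases, each with a C and a G at fixed positions of its centre. In GRCh37, 8 of the 9 genes had a match of 20 bases, with both half-sites adjacent and at most 2 bases off the consensus, within 3000 bases either side of the start of the main transcript. Among 20136 protein-coding genes, 926 (4.6%) had a match within 3000 bases of their start. For genes other than the 9, that start was the first base of the gene record, not that of the main transcript. This share and the 8 of 9 thus come from windows placed by unlike rules. The 7 sequences shown here are the matches at 7 of these genes, written on the gene's own strand with the fixed C and G of each half-site in capitals. They have in common those fixed letters and a c as the last base of the first half-site, and vary at every other position. The RRM2B match, in intron 1, is not printed.

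CDKN1A: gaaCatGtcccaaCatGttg
BTG2: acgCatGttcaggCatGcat
MDM2: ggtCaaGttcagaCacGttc
BAX: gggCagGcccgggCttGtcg
FAS: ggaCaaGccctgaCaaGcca
GDF15: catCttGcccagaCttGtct
ZMAT3: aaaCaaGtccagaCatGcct

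The CDKN1A match lies at chr6:36644226-36644245, 2265 bases upstream of the start of the main transcript. The BTG2 match, at chr1:203272770-203272789, and the GDF15 match, at chr19:18496118-18496137, are also upstream, by 1877 and 850 bases. The other 4 lie in intron 1. They are MDM2 at chr12:69202703-69202722, 746 bases after the start, BAX at chr19:49458470-49458489, 338 bases after it, FAS at chr10:90751066-90751085, 652 bases after it, and ZMAT3 at chr3:178787976-178787995, on the minus strand and 1602 bases after it. The ZMAT3 sequence was the only one of these with 0 bases off the consensus. RRM2B had 1 base off, and the other 6 had 2. BBC3 had no match in this window, which says only that these letters are not there.

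**Figure D1:**
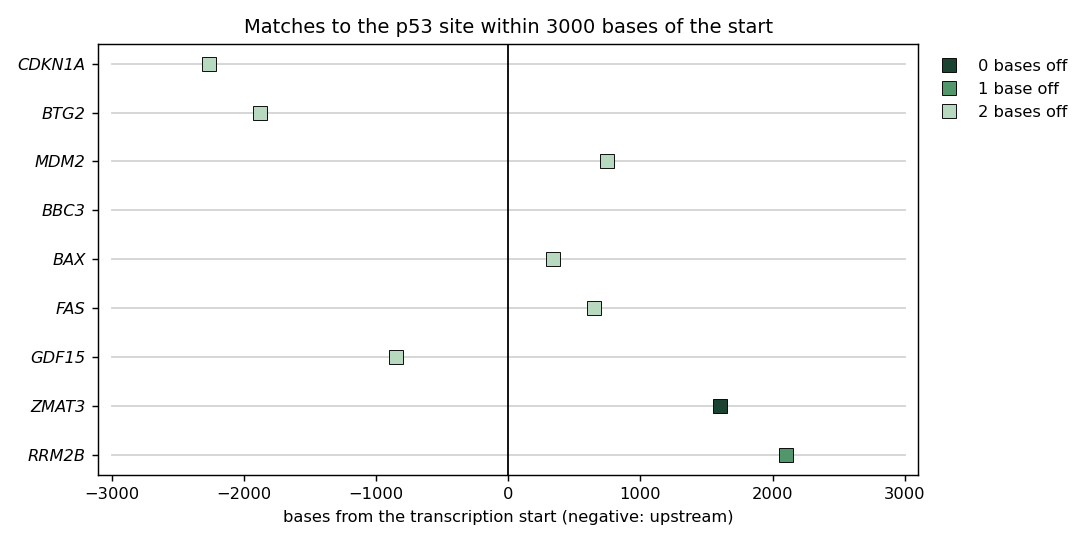
Distance of each match to the p53 site from the start of the gene's main transcript, in bases, with upstream at the left. Squares are coloured by the number of bases off the consensus. Of the matches, 5 lie after the start in intron 1 and 3 lie upstream, and BBC3 has none within 3000 bases.

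The core letters that HIF reads were about as frequent in the promoters of these genes as in promoters at large. RefSeq promoters of GRCh38.p14, running from 250 bases before the start to 50 after it, were at hand for 8 of the 9 genes. Searched on both strands, ACGTG was in 2 of them (BBC3 and BAX) and in 21.6% of all 27305 promoters. GCGTG was in 2 others (CDKN1A and ZMAT3) and in 36.3% of all promoters. Either core was in 4 of the 8 and in 48.4% of all, and a core is a match of letters, not a bound site.

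Sequencing gave 40915980 to 97984260 counted reads per sample, and 3 reads equal 0.0306 to 0.0733 CPM, a gene's count scaled to the size of its library. HKC-8 libraries were deeper than those of the other lines. Levels are given as CPM scaled by the trimmed mean of M values (TMM) over all 18 samples. The hypoxia-induced genes checked rose wherever they were tested, in 8 of 8, 6 of 6 and 8 of 8 cases in HKC-8, RCC4+VHL and HepG2 cells. NDRG1 rose by 4.72, 3.74 and 3.56 on the log2 scale, and VEGFA by 1.72, 0.87 and 1.38. CA9, a carbonic anhydrase gene, rose by 4.92 and 8.45 in HKC-8 and HepG2 cells, and in RCC4+VHL cells it was at 0 counts in normoxia and 0.0624 to 0.124 CPM in hypoxia, too low to be tested. The liver genes ALB and AFP were at 10700 and 6990 CPM in normoxic HepG2 cells and at most 0.12 CPM in the normoxic samples of the kidney lines. The kidney marker PAX8 was at 165 CPM in HKC-8, 133 in RCC4+VHL and 9.38 in HepG2 cells. Of the other kidney tubule markers, CDH16 stood at 3.23 CPM in normoxic HKC-8 cells, and PAX2, LRP2, CUBN, AQP1, CDH6 and SLC34A1 were at or near 0. Both CDH6 and CDH16 were abundant in RCC4+VHL cells, at 232 and 231 CPM. These are bulk samples, in which fewer cells of a kind and less RNA per cell cannot be told apart.

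Before any hypoxia, the level of nearly every one of the 9 genes separated HKC-8 cells from the cancer lines. All 9 were higher in HepG2 than in HKC-8 cells, where 42.6% of the 14806 genes tested were higher and 40.5% lower (edgeR quasi-likelihood test over the 9 normoxic samples, Benjamini-Hochberg adjusted p under 0.05). Of the 9, 8 were higher in RCC4+VHL than in HKC-8 cells, against 39.4% of all genes higher and 41.4% lower. Between the cancer lines 1 of the 9 was higher and 4 were lower in RCC4+VHL than in HepG2 cells, and over all genes 38.1% were higher and 45.3% lower, with a median log2 difference of -0.11. Cell line and depth cannot be told apart in the contrasts with HKC-8 cells.

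GDF15 differed most. Its normoxic level was 0.474 ± 0.214 CPM (SD, n = 3) in HKC-8, 123 ± 3.14 in RCC4+VHL and 278 ± 44.3 in HepG2 cells. The log2 difference from HKC-8 cells was 8.03 (SE 0.20, edgeR adjusted p = 2.77e-13) in RCC4+VHL and 9.23 (SE 0.20, adjusted p = 4.17e-14) in HepG2 cells, and RCC4+VHL cells lay 1.20 below HepG2 cells (SE 0.13, adjusted p = 8.97e-07). In HKC-8 cells the gene rested on 29 to 60 reads per normoxic sample. FAS and the death gene BBC3 followed in size. FAS was at 2.54 ± 0.576, 49.6 ± 1.8 and 44.8 ± 3.4 CPM in HKC-8, RCC4+VHL and HepG2 cells, a log2 difference from HKC-8 cells of 4.29 and 4.17 (SE 0.14 each). BBC3 was at 0.848 ± 0.0405, 16.4 ± 0.643 and 11.2 ± 0.253 CPM, a log2 difference of 4.28 and 3.76 (SE 0.13 each). The CDKN1A transcript was at 14.9 ± 2.06 CPM in HKC-8 cells and at 174 ± 2.03 and 188 ± 13.3 CPM in RCC4+VHL and HepG2 cells, 11.8 and 12.9 times as high in the fit.

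The remaining genes differed less. ZMAT3, at 15.2 ± 0.436 CPM in HKC-8 cells, stood 2.17 and 2.33 higher on the log2 scale in RCC4+VHL and HepG2 cells (SE 0.08 each). BTG2, at 6.99 ± 1.26 CPM in HKC-8 cells, was 1.90 and 2.28 higher (SE 0.12 each). BAX, at 38.4 ± 2.04 CPM, was 1.27 and 1.40 higher (SE 0.07 each). Of these 6 differences and the 6 for FAS, BBC3 and CDKN1A, the highest edgeR adjusted p was 2.05e-09 (BTG2 in RCC4+VHL against HKC-8 cells). MDM2 rose in steps along the lines, from 131 ± 11.7 CPM in HKC-8 to 216 ± 6.85 in RCC4+VHL and 372 ± 8.4 in HepG2 cells, and each step passed the test (adjusted p = 3.39e-07 and 1.13e-07). RRM2B was the flat one, at 68.5 ± 6.48, 61.6 ± 1.63 and 81.5 ± 6.94 CPM. It was 0.28 higher in HepG2 than in HKC-8 cells (SE 0.08, adjusted p = 0.00615), a call that was lost without HKC-8 normoxia replicate 2 or HepG2 normoxia replicate 1 (adjusted p up to 0.116), and its RCC4+VHL level did not pass the test against HKC-8 cells (adjusted p = 0.122).

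Between RCC4+VHL and HepG2 cells the neighbours in level were often close. CDKN1A, BAX, FAS and ZMAT3 did not pass the test there (adjusted p = 0.171, 0.0877, 0.361 and 0.0715). BBC3 was 0.52 higher in RCC4+VHL cells (SE 0.10, adjusted p = 0.000395), whereas BTG2 (-0.38), MDM2 (-0.81) and RRM2B (-0.43) were lower along with GDF15. The order of the 3 lines was thus HKC-8 lowest for 8 genes, and for RRM2B HepG2 highest.

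The regulator MDM4, a relative of MDM2 that binds and restrains p53, was at 24 ± 0.264 CPM in normoxic HKC-8, 3.58 ± 0.674 in RCC4+VHL and 19.3 ± 1.16 in HepG2 cells, and its RCC4+VHL level lay 2.73 below that of HKC-8 cells on the log2 scale (SE 0.13, edgeR adjusted p = 1.16e-10). Of 38 other p53 targets tested, 25 were higher and 11 lower in HepG2 than in HKC-8 cells, and 24 were higher and 11 lower in RCC4+VHL than in HKC-8 cells. In HepG2 against HKC-8 cells, 65.8% of that list was higher and 28.9% lower, against 42.6% and 40.5% of all genes. In RCC4+VHL against HKC-8 cells, 63.2% of it was higher and 28.9% lower, against 39.4% and 41.4% of all genes. RRM1, the large subunit of ribonucleotide reductase, was at 363, 273 and 122 CPM in normoxic HKC-8, RCC4+VHL and HepG2 cells, and RRM2, the small subunit used in dividing cells, at 347, 130 and 313 CPM. Neither shared the flat pattern of RRM2B.

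**Figure D2:**
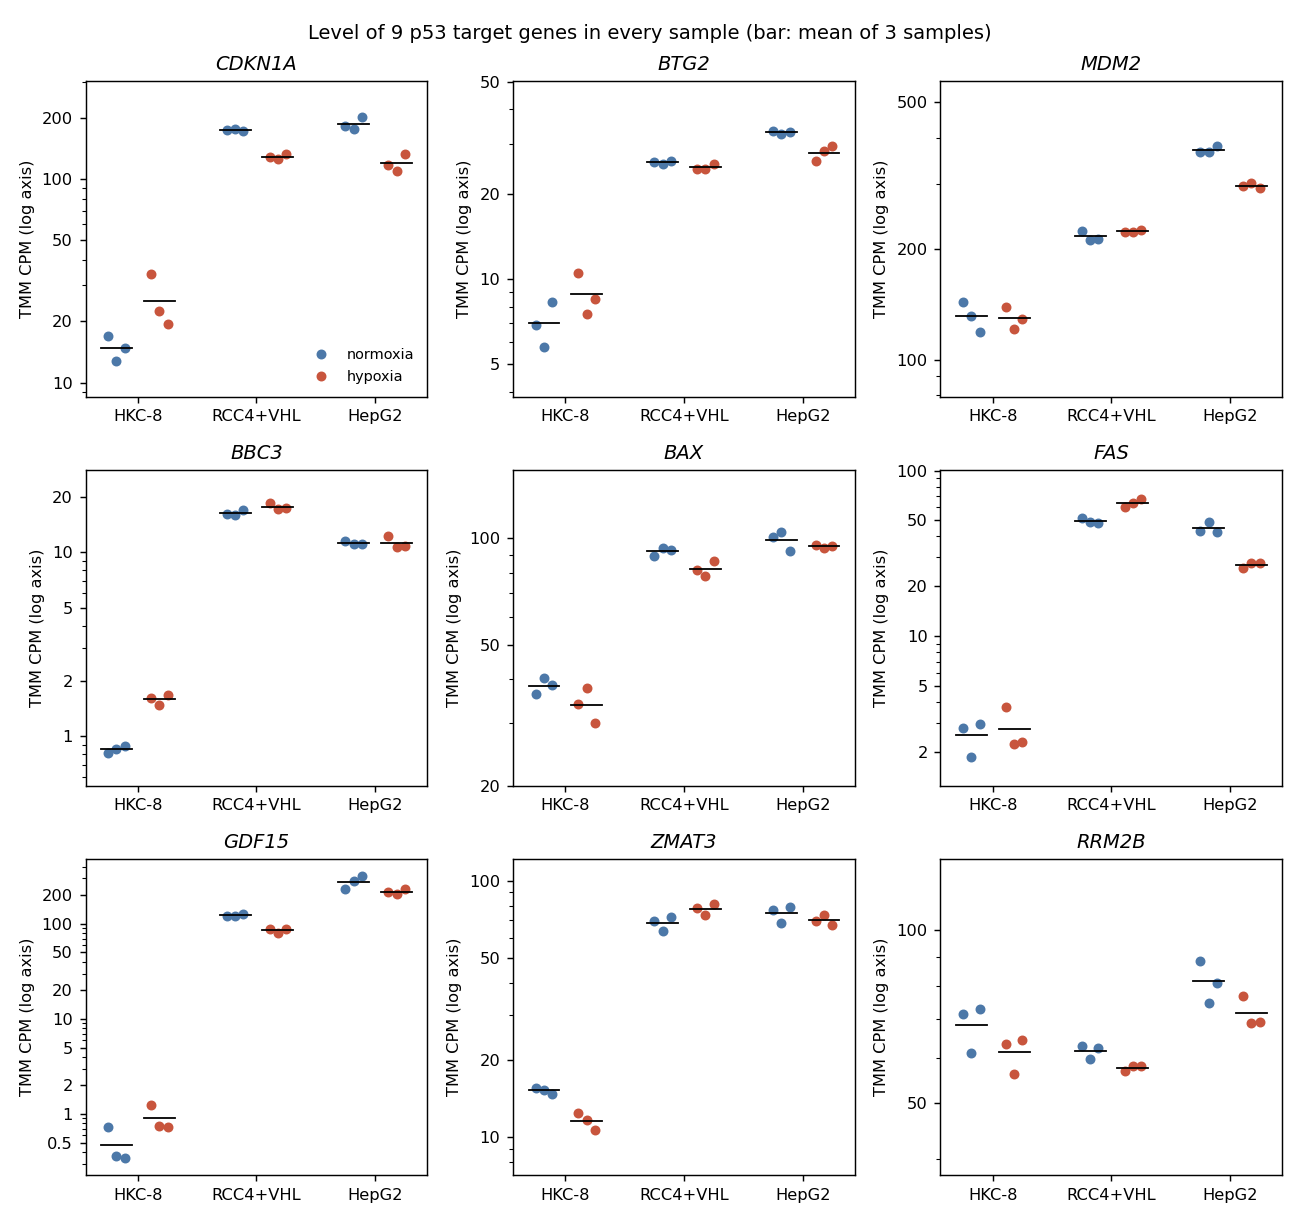
Level of each gene in every sample, in TMM-scaled CPM on a log axis, by cell line and oxygen, with a bar at the mean of 3 samples. HKC-8 samples lie below all others for 8 of the 9 genes, RRM2B being the exception, and CDKN1A is above its normoxic level in hypoxic HKC-8 cells and below it in the other lines.

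In hypoxia CDKN1A, FAS and ZMAT3 were each called higher in 1 cell line and lower in another, and RRM2B was called in none. In HKC-8 cells 2 rose (CDKN1A and BBC3) and 1 fell (ZMAT3), against 11.2% of the 13536 genes tested higher and 9.12% lower. In RCC4+VHL cells 2 rose (FAS and ZMAT3) and 3 fell (CDKN1A, GDF15 and BAX), against 25.9% of 12811 genes higher and 24.2% lower, shares near those of the 9. In HepG2 cells 5 fell (FAS, CDKN1A, GDF15, MDM2 and BTG2), which is 55.6% of the 9 against 19.2% of 13623 genes lower and 19.9% higher. None rose in HepG2 cells by edgeR, where 0 were higher at an unadjusted p under 0.05 and 0 by DESeq2. All calls are edgeR quasi-likelihood tests within 1 line at an adjusted p under 0.05. In unpaired fits the HKC-8 counts were 0 to 2 higher and 0 to 1 lower when 1 sample was left out, with none without normoxia replicate 1, normoxia replicate 2 or hypoxia replicate 1. With the replicate number as a block, which pairs the HKC-8 samples, the same 3 genes were called there (adjusted p = 0.000474 for CDKN1A, 0.00545 for BBC3 and 0.00489 for ZMAT3). The HepG2 count was 3 without hypoxia replicate 2 and in 1 fit of all 18 samples. Shares of all genes called are not given for the fits with a sample left out or for that of all 18 samples.

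**Figure D3:**
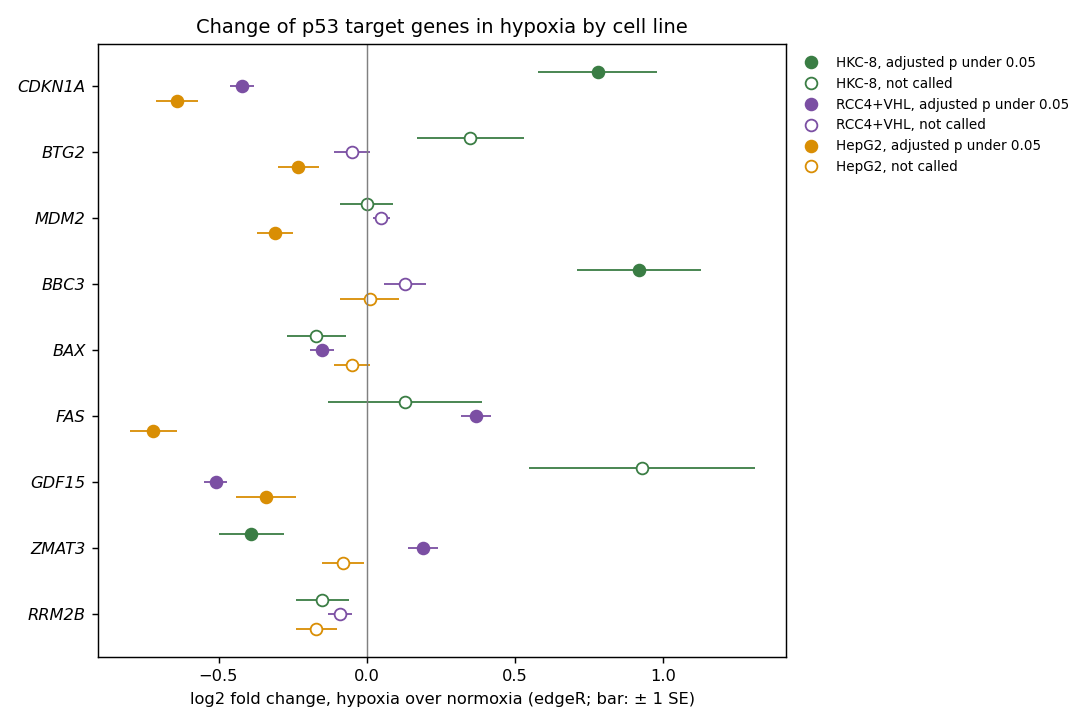
Log2 fold change of each gene in hypoxia over normoxia in each cell line, from edgeR, with bars of 1 SE. Filled points passed an adjusted p of 0.05. HepG2 cells have 5 filled points, all below 0, and the HKC-8 bars are wider than those of the other lines.

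The arrest gene CDKN1A rose in HKC-8 cells and fell in both cancer lines. In HKC-8 cells its level was 17, 12.8 and 14.8 CPM in the normoxic samples and 34, 22.5 and 19.3 CPM in the hypoxic ones. In RCC4+VHL cells it was 174, 176 and 172 CPM in normoxia and 129, 126 and 132 CPM in hypoxia. In HepG2 cells it was 183, 177 and 202 CPM in normoxia and 117, 109 and 132 CPM in hypoxia. No normoxic sample overlapped a hypoxic one in any line. The log2 fold change was 0.78 (SE 0.20, edgeR adjusted p = 0.0282) in HKC-8, -0.42 (SE 0.04, adjusted p = 8.98e-10) in RCC4+VHL and -0.64 (SE 0.07, adjusted p = 1.82e-05) in HepG2 cells. Even at its hypoxic level in HKC-8 cells, 25.3 ± 7.76 CPM, CDKN1A stayed below every sample of the other lines. In unpaired fits the HKC-8 call was lost without normoxia replicate 1, normoxia replicate 2 or hypoxia replicate 1 (adjusted p up to 0.0845), with a log2 fold change of 0.50 to 0.93 when 1 of the 6 samples was dropped.

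BTG2, the other antiproliferative gene, fell in HepG2 cells. Its HKC-8 levels were 6.9, 5.77 and 8.29 CPM in normoxia and 10.5, 7.55 and 8.51 CPM in hypoxia, with overlapping groups (log2 0.35, SE 0.18, adjusted p = 0.187, and 0.0395 with the replicate number as a block). RCC4+VHL cells kept it between 24.5 and 26.3 CPM in all 6 samples (log2 -0.05, SE 0.06, adjusted p = 0.479). In HepG2 cells it went from 33.5, 32.7 and 33.2 CPM to 26.1, 28.5 and 29.6 CPM, without overlap (log2 -0.23, SE 0.07, edgeR adjusted p = 0.0194). This small drop lost its call when HepG2 normoxia replicate 1, hypoxia replicate 1 or hypoxia replicate 2 was left out (adjusted p up to 0.115) and in 1 fit of all 18 samples (0.134). BTG1, a relative of BTG2, took another course and rose by 1.06 in HKC-8 cells (adjusted p = 0.0028) and by 0.91 in HepG2 cells (adjusted p = 3.18e-06), with -0.01 in RCC4+VHL cells (adjusted p = 0.855). It was 1 of the 5 BTG and TOB relatives. Of those tested, 1 of 4 rose in HKC-8 cells, 1 of 5 in RCC4+VHL cells (another gene than BTG1) and 1 of 4 in HepG2 cells. These are 25%, 20% and 25%, against 11.2%, 25.9% and 19.9% of all genes. In HepG2 cells alone 1 fell (25%, against 19.2% of all genes).

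The other inhibitors of cyclin-dependent kinases were counted beside CDKN1A. None of the 5 tested passed in HKC-8 cells by edgeR (1 lower at an unadjusted p under 0.05 and 1 lower by DESeq2), and 1 of 4 in RCC4+VHL and 1 of 5 in HepG2 cells fell (25% and 20%), near the 24.2% and 19.2% of all genes. Cell cycle genes that p21 lowers through the DREAM repressor complex were mostly called lower or not called. Of 12 tested, 1 rose and 3 fell in HKC-8 cells, 1 rose and 7 fell in RCC4+VHL cells, and 7 fell in HepG2 cells. The lower share was 58.3% in both RCC4+VHL and HepG2 cells, against 24.2% and 19.2% of all genes, and 25% in HKC-8 cells, against 9.12%. With the block, 6 of the 12 were lower in HKC-8 cells, where 21.6% of all genes were. CDKN1A fell in RCC4+VHL and HepG2 cells too and rose in HKC-8 cells.

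MDM2, the negative regulator of p53, fell in HepG2 cells. Its HKC-8 levels were 143, 131 and 119 CPM in normoxia and 139, 121 and 129 CPM in hypoxia (log2 0.00, SE 0.09, adjusted p = 0.996). The RCC4+VHL values were 224, 212 and 213 CPM against 222, 222 and 225 CPM (log2 0.05, SE 0.03, adjusted p = 0.202). In HepG2 cells they were 367, 367 and 381 CPM against 296, 302 and 293 CPM. The HepG2 groups were well apart, and the log2 fold change was -0.31 (SE 0.06, edgeR adjusted p = 0.000619). MDM4 fell by 0.45 in RCC4+VHL cells (adjusted p = 0.0231) and was not called in HKC-8 (adjusted p = 0.202) or HepG2 cells (adjusted p = 0.812).

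Of the death genes, BBC3 rose in HKC-8 cells from a very low level. Its normoxic values there were 0.805, 0.854 and 0.886 CPM, or 67 to 80 reads, and its hypoxic values 1.61, 1.48 and 1.68 CPM, or 129 to 144 reads. The RCC4+VHL values were 16.2, 15.9 and 17.1 CPM against 18.7, 17.2 and 17.4 CPM, and in HepG2 cells 11.5, 11.1 and 11.1 CPM against 12.3, 10.7 and 10.8 CPM. Only the HKC-8 change passed the test, at a log2 fold change of 0.92 (SE 0.21, edgeR adjusted p = 0.0157), against 0.13 (SE 0.07, adjusted p = 0.13) and 0.01 (SE 0.10, adjusted p = 0.941) in RCC4+VHL and HepG2 cells. It held the same size without any 1 sample (0.87 to 0.97), although the call was lost without normoxia replicate 1 or 2 or hypoxia replicate 1 or 3 (adjusted p up to 0.0726).

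BAX fell in RCC4+VHL cells, from 89, 94.2 and 92.7 CPM to 81.5, 78.4 and 86.2 CPM, without overlap (log2 -0.15, SE 0.04, edgeR adjusted p = 0.00524). In 1 fit of all 18 samples this call was lost (adjusted p = 0.134). Its HKC-8 values overlapped, with 36.3, 40.3 and 38.5 CPM in normoxia and 34.1, 37.7 and 30 CPM in hypoxia (log2 -0.17, SE 0.10, adjusted p = 0.264). The HepG2 values overlapped too, at 101, 104 and 91.9 CPM against 96.1, 94.3 and 95.5 CPM (log2 -0.05, SE 0.06, adjusted p = 0.575).

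FAS split the cancer lines. In RCC4+VHL cells it was 51.6, 48.9 and 48.2 CPM in normoxia and 60.3, 64 and 67 CPM in hypoxia. In HepG2 cells it was 43.2, 48.7 and 42.5 CPM in normoxia and 25.7, 27.6 and 27.7 CPM in hypoxia. From a similar normoxic level, all hypoxic RCC4+VHL samples thus lay above, and all hypoxic HepG2 samples below, the normoxic ones of their line. The log2 fold change was 0.37 (SE 0.05, edgeR adjusted p = 7.37e-07) in RCC4+VHL and -0.72 (SE 0.08, adjusted p = 8.74e-06) in HepG2 cells. The RCC4+VHL rise missed the threshold in 1 fit of all 18 samples (adjusted p = 0.0581). HKC-8 cells held little FAS, with 2.78, 1.88 and 2.96 CPM in normoxia and 3.77, 2.25 and 2.29 CPM in hypoxia, and the groups overlapped (log2 0.13, SE 0.26, adjusted p = 0.751). Among the partners of FAS in death signalling, 2 of 5 tested fell in HKC-8 cells, 1 rose and 1 fell in RCC4+VHL cells, and 3 fell in HepG2 cells. The lower share was thus 40%, 20% and 60%, against 9.12%, 24.2% and 19.2% of all genes. In RCC4+VHL cells 20% were higher, against 25.9% of all genes, so that line was near all genes.

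Relatives of BAX and BBC3 in the BCL2 family were called in both directions in the cancer lines. BIK, a death gene of the same BH3-only class as BBC3, rose by 1.75 in RCC4+VHL cells (SE 0.43, adjusted p = 0.00174), where its level was 0.121 to 0.444 CPM in normoxia and 0.722 to 0.873 CPM in hypoxia. BMF, of the same class, fell by 1.45 in RCC4+VHL cells (SE 0.12, adjusted p = 7.68e-10) and rose by 0.84 in HepG2 cells (SE 0.09, adjusted p = 1.1e-05). In HKC-8 cells neither was called (adjusted p = 0.982 and 0.589). Of the family, 1 of 10 tested fell in HKC-8 cells (1 higher and 2 lower with the block), 5 rose and 3 fell of 11 in RCC4+VHL cells, and 5 rose and 2 fell of 11 in HepG2 cells. Those higher were 45.5% in each cancer line against 25.9% and 19.9% of all genes in RCC4+VHL and HepG2 cells, and those lower were 27.3% and 18.2% against 24.2% and 19.2%.

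The secreted factor GDF15 fell in the cancer lines, where it was abundant. Its RCC4+VHL values were 122, 121 and 127 CPM in normoxia and 89, 80.7 and 87.7 CPM in hypoxia, without overlap. The HepG2 values were 230, 285 and 318 CPM in normoxia and 218, 204 and 233 CPM in hypoxia. In HepG2 cells the groups overlapped, since the lowest normoxic sample lay below the highest hypoxic one. The log2 fold change was -0.51 (SE 0.04, edgeR adjusted p = 1.14e-09) in RCC4+VHL and -0.34 (SE 0.10, adjusted p = 0.0132) in HepG2 cells. The HepG2 call was lost without hypoxia replicate 2 (adjusted p = 0.0706) and in 1 fit of all 18 samples (0.0518). In HKC-8 cells GDF15 was at 0.721, 0.359 and 0.343 CPM in normoxia and 1.24, 0.74 and 0.726 CPM in hypoxia, from 29 to 99 reads. These groups did not overlap, but the log2 fold change of 0.93 (SE 0.38) did not pass the test (adjusted p = 0.113). With the replicate number as a block, which pairs the HKC-8 samples, it was 0.96 and passed (adjusted p = 0.0155).

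ZMAT3 fell in HKC-8 cells and rose in RCC4+VHL cells. Its HKC-8 values were 15.6, 15.3 and 14.8 CPM in normoxia and 12.4, 11.7 and 10.7 CPM in hypoxia. The RCC4+VHL values were 69.8, 63.4 and 72 CPM against 78.2, 73.8 and 80.8 CPM, and in HepG2 cells 77.1, 68.4 and 78.9 CPM against 69.9, 73.2 and 67.4 CPM. The groups were apart in HKC-8 and RCC4+VHL cells and overlapped in HepG2 cells. The log2 fold change was -0.39 (SE 0.11, edgeR adjusted p = 0.0342), 0.19 (SE 0.05, adjusted p = 0.00279) and -0.08 (SE 0.07, adjusted p = 0.354) in HKC-8, RCC4+VHL and HepG2 cells. The HKC-8 call held in only 1 of the 6 fits that leave out a sample, the one without normoxia replicate 3, at log2 values of -0.44 to -0.34 and an adjusted p up to 0.123. The RCC4+VHL call was lost in 1 fit of all 18 samples (adjusted p = 0.0767).

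RRM2B passed the test in none of the lines. It was at 71.4, 61.1 and 73.1 CPM in normoxic and 63.4, 56.3 and 64.4 CPM in hypoxic HKC-8 cells. The RCC4+VHL values were 62.8, 59.8 and 62.3 CPM against 56.9, 58.1 and 58 CPM. The HepG2 values were 88.6, 74.8 and 81 CPM against 76.9, 69.1 and 69.3 CPM. The groups overlapped in HKC-8 and HepG2 cells, and in RCC4+VHL cells they were narrowly apart. The log2 fold changes were -0.15, -0.09 and -0.17 (edgeR adjusted p = 0.292, 0.11 and 0.0726). With the replicate number as a block RRM2B passed in HepG2 cells (adjusted p = 0.03), where 21.3% of all genes were lower in the same fit. Of the partner subunits, RRM1 was not called in any line (adjusted p = 0.0945, 0.572 and 0.216), and RRM2 fell by 0.13 in RCC4+VHL cells (adjusted p = 0.00731) and was not called in the others.

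The block matters for the 9 genes chiefly in HKC-8 cells, where it raised the calls to 4 higher and 1 lower. CDKN1A, BBC3, GDF15 and BTG2 were then higher and ZMAT3 lower, against 21% of all genes higher and 21.6% lower in the same fit.

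The other p53 targets moved with the 9 genes in HepG2 cells. Of 38 tested, 3 rose and 20 fell, so that 52.6% were lower against 19.2% of all genes, with a median log2 fold change of -0.24 against 0. Between 17 and 22 were lower when any 1 sample was left out. C12orf5, which encodes the metabolic regulator TIGAR, fell by 0.68 (SE 0.07, edgeR adjusted p = 7.08e-06). FDXR, the gene of mitochondrial ferredoxin reductase, fell by 0.66 (SE 0.07, adjusted p = 5.19e-06) from 115 ± 6.72 to 72.5 ± 4 CPM. PLK3, a polo-like kinase gene, fell by 0.66 (SE 0.12, adjusted p = 0.000743), and KITLG, the gene of the KIT ligand, by 0.65 (SE 0.10, adjusted p = 0.000195). These 4 were picked after their values were seen, as the largest drops on the list. The death gene APAF1 went the other way and rose by 0.66 (adjusted p = 1.85e-05), also named after its value was seen.

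In HKC-8 cells 6 of 37 other targets rose and 3 fell, 16.2% and 8.11% against 11.2% and 9.12% of all genes. With the block 10 rose and 8 fell, when 21% of all genes were higher and 21.6% lower. The largest change was in SESN2, a sestrin gene that restrains the growth kinase complex mTORC1, which rose by 1.21 (SE 0.12, edgeR adjusted p = 0.000387), from 20.8 ± 3.04 to 47.7 ± 4.38 CPM. SESN2 fell in RCC4+VHL cells (log2 -0.24, adjusted p = 0.00223) and in HepG2 cells (log2 -0.48, adjusted p = 0.000136), the same 3 directions as CDKN1A. Among RCC4+VHL samples 10 of 36 other targets rose and 11 fell, close to the 25.9% and 24.2% of all genes.

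GDF15 and SESN2 are also known targets of ATF4, the factor of the integrated stress response, so the genes of that response were counted as well. All 7 tested rose in HKC-8 cells, where 11.2% of all genes did, with a median log2 fold change of 1.36 against 0 over all genes. CHAC1 rose by 2.09 (SE 0.23, edgeR adjusted p = 0.000537), TRIB3 by 2.00 (SE 0.10, adjusted p = 7.03e-06), ASNS, the asparagine synthetase gene, by 1.93 (SE 0.37, adjusted p = 0.00853), PSAT1, of serine synthesis, by 1.36 (SE 0.16, adjusted p = 0.000906), and the factor ATF3 by 1.34 (SE 0.15, adjusted p = 0.000776). The list did not rise as a whole in the cancer lines. In RCC4+VHL cells 14.3% of it was higher and 28.6% lower, against 25.9% and 24.2% of all genes. In HepG2 cells 14.3% was higher and 42.9% lower, against 19.9% and 19.2%. In RCC4+VHL cells 1 rose and 2 fell of 7, the riser being TRIB3 at 1.45 (SE 0.04, adjusted p = 1.31e-18), while ASNS fell by 0.28 (adjusted p = 7.75e-05) and PSAT1 by 0.19 (adjusted p = 0.000595). In HepG2 cells 1 rose and 3 fell, with ATF3 higher by 0.38 (adjusted p = 0.0118) and PSAT1 lower by 0.54 (adjusted p = 1.02e-05). The part of this response in the HKC-8 values of GDF15, CDKN1A or SESN2 was not tested. GFRAL, the receptor of GDF15, had too few reads to be tested in any line.

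Whether the responses differed between lines was tested directly, as the interaction of cell line and oxygen. In these fits each gene's spread was shared by both lines, although the HKC-8 SEs of the 9 genes were the widest. The SE of a difference can thus be below that of its HKC-8 part, and its p-value too small. For GDF15 the SE was 0.32 against HepG2 cells and 0.29 against RCC4+VHL cells, but 0.38 within HKC-8 cells. For BBC3 these were 0.18, 0.15 and 0.21, and for CDKN1A, which did not narrow, 0.23, 0.22 and 0.20. Between HepG2 and HKC-8 cells, whose exposure is the same by the characteristics but not by the titles, 3 of the 9 differed, all more negative in HepG2 cells, against 4.28% of 15046 genes more negative and 5.02% more positive. The differences were -1.41 for CDKN1A (SE 0.23, edgeR adjusted p = 0.00113), -0.90 for BBC3 (SE 0.18, adjusted p = 0.0053) and -1.26 for GDF15 (SE 0.32, adjusted p = 0.0227). FAS fell short, at -0.85 (SE 0.26, adjusted p = 0.0515). With the replicate number as a block FAS, BTG2, MDM2 and ZMAT3 passed as well (adjusted p = 0.00326, 0.00986, 0.0193 and 0.0491), the first 3 more negative in HepG2 cells. In that blocked fit 9.05% of all genes were more negative and 11% more positive in HepG2 cells. The GDF15 difference was lost without HKC-8 normoxia replicate 2, HKC-8 hypoxia replicate 1 or HepG2 normoxia replicate 2 (adjusted p up to 0.0866).

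Between RCC4+VHL and HKC-8 cells 4 of the 9 responses differed, against 7.29% of 14203 genes more negative and 7.87% more positive in RCC4+VHL cells. CDKN1A (-1.21, SE 0.22, edgeR adjusted p = 0.00271), BBC3 (-0.81, SE 0.15, adjusted p = 0.00362) and GDF15 (-1.45, SE 0.29, adjusted p = 0.00484) responded more negatively in RCC4+VHL cells. ZMAT3 responded more positively (0.56, SE 0.10, adjusted p = 0.00299). These 4 calls held without any 1 of the 12 samples, and the block added BTG2 (-0.42, adjusted p = 0.0322). With the block 13.3% of all genes were more negative and 15.3% more positive in RCC4+VHL cells. The HKC-8 samples are shared with the comparison above. Because the characteristics give RCC4+VHL cells another oxygen level and duration, line and exposure cannot be told apart here or in the next comparison.

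Between the cancer lines 3 of the 9 responses differed, all more positive in RCC4+VHL cells, where 10.9% of 14813 genes were more positive and 11.7% more negative. FAS differed by 1.09 (SE 0.09, edgeR adjusted p = 4.76e-08), MDM2 by 0.36 (SE 0.06, adjusted p = 0.000257) and ZMAT3 by 0.27 (SE 0.09, adjusted p = 0.0386). FAS and MDM2 held under every alternative and without any 1 sample. ZMAT3 was lost with another scaling (adjusted p = 0.0507), in 1 fit of all 18 samples (0.0993) and without any of 8 of the 12 samples (up to 0.122). CDKN1A, which fell in both lines, differed by 0.21 (SE 0.08, adjusted p = 0.0769, and 0.0221 with the block). The blocked fit had 12% of all genes more positive and 12.7% more negative in RCC4+VHL cells. Of the other p53 targets, 13 of 38 responded more positively and 1 more negatively in RCC4+VHL than in HepG2 cells.

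With each cell line's mean taken from the log2 levels of the 18 samples, the 9 genes did not vary as 1 group. Among the 9, CDKN1A was closest to GDF15 (Pearson r = 0.88) and BTG2 (0.80), and FAS to MDM2 (0.72). BBC3 and ZMAT3 had an r of -0.71. The lines are pooled and the hypoxia changes stay in these values. For BBC3 and ZMAT3 those changes were opposite in HKC-8 cells (log2 0.92 and -0.39). Both were positive in RCC4+VHL cells (0.13 and 0.19), and they were 0.01 and -0.08 in HepG2 cells. Of all 15307 genes with enough reads, RDH11 (0.953) and CYP51A1 (0.931), genes of retinol and sterol metabolism, were closest to CDKN1A. For GDF15 they were RDH11 (0.905) and CDKN1A (0.882), for FAS SLC35A1 (0.913) and SESN1 (0.902), and for MDM2 LBR (0.935) and IFRD1 (0.92). BBC3 was closest to CXCR4 and ADARB1 (0.97 each), and BTG2 to FAM213A (0.951) and ATP8A1 (0.936). For BAX they were ATP5SL (0.929) and UFC1 (0.906), for ZMAT3 PPIP5K2 (0.878), and for RRM2B USP30 (0.902) and EHHADH (0.894). The 18 points share library, line and oxygen, so these values are a description. Uncentred levels fell into separate clusters by cell line, and no r is given for them.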

How the data were processed

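PolyA+ RNA of 18 samples was sequenced. The authors trimmed reads with Trim Galore 0.3.3, aligned them to GRCh37 with TopHat 2.0.8b and Bowtie 1.0.0, discarded fragments without a unique position with SAMtools 0.1.19 and assigned reads to UCSC genes with HTSeq 0.5.4p3 under the intersection-strict rule. What they deposited are raw counts of reads per gene. Dropping ambiguous reads lowers genes with near copies. The strand setting is not given in the sources used here, so a gene and its antisense neighbour could not be told apart.

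From the counts onwards, edgeR 4.0.16 in R 4.3.3 was used, with filterByExpr, TMM scaling, glmQLFit and glmQLFTest. Each line's hypoxia comparison was fitted on its own 6 samples, each response difference on 12 and the normoxic contrasts on 9. Benjamini-Hochberg adjustment ran over all genes tested, with a threshold of 0.05. SE is the log2 fold change divided by the square root of F. Alternatives were DESeq2 1.42.0, median-of-ratios scaling in edgeR, omission of the count filter, a stricter filter of 10 counts in each sample, a block for the replicate number, a joint fit of the 18 samples, and omission of each sample in turn. The procedure was tested on simulated data with known changes. Totals of 40915980 to 97984260 reads per sample set the counting precision, and no 2 replicates agreed within sampling noise (chi-square per degree of freedom 4.57 to 91.5).

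Replicate numbers in the titles recur in the normoxic and hypoxic samples of a line. Across genes, the departures from the group mean of samples with the same number correlated at 0.113, 0.469 and 0.456 in HKC-8 cells. They correlated at -0.0107, 0.0333 and 0.0138 in RCC4+VHL cells and at 0.162, 0.0611 and 0.181 in HepG2 cells. The highest r with a sample of another number was 0.119, 0.119 and 0.0511 in HKC-8 cells. It was 0.0256, 0.0108 and 0.0256 in RCC4+VHL cells and 0.0222, 0.0222 and -0.0391 in HepG2 cells. HKC-8 cells were taken as paired because of numbers 2 and 3, while number 1 did not stand out. HepG2 cells were not, although each same-number value was above those of other numbers. The main tests used no block in any line.

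The 9 genes and all gene lists were chosen with earlier results of these data known. Named besides the 9 were MDM4, RRM1 and RRM2, any list gene that passed the threshold with a log2 change of 1 or more in size in some line, CA9, VEGFA and NDRG1, and the 2 genes most like each of the 9, and 2 genes that this rule names are not reported here. C12orf5, FDXR, PLK3, KITLG and APAF1 were named after their values were seen. Matches to the p53 site were sought on both strands of GRCh37 with Python 3.11.15. The window lay around the GENCODE main transcript start for the 9 genes and around the start of the gene record for all others.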

Additional observations from a re-analysis of the deposited data

Results flagged for a closer look

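The hypoxia response of some p53 target genes differed between cell lines by the interaction test (edgeR, adjusted p under 0.05), 10 differences in all among the 9 genes. CDKN1A responded more negatively in HepG2 than in HKC-8 cells by 1.41 on the log2 scale (value -1.41) and in RCC4+VHL than in HKC-8 cells by 1.21 (-1.21). BBC3 did so by -0.90 and -0.81, and GDF15 by -1.26 and -1.45. ZMAT3 responded more positively in RCC4+VHL than in HKC-8 cells, by 0.56, and than in HepG2 cells, by 0.27. FAS and MDM2 responded more positively in RCC4+VHL than in HepG2 cells, by 1.09 and 0.36. In CDKN1A every hypoxic sample lay above every normoxic one in HKC-8 cells and below it in the other lines. In FAS the same split ran between RCC4+VHL cells, all higher, and HepG2 cells, all lower. The labels give RCC4+VHL cells another exposure and conflict on that of HKC-8 cells, so no pair of lines with either is matched by every label, and HKC-8 libraries were deeper than the others. The part of exposure and depth in these differences was not tested. The fits shared each gene's spread over lines of unlike spread, so p-values of pairs with HKC-8 cells may be too small.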

How the results depend on the processing

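Of 1134 values of single genes under an alternative, 1062 kept their direction and side of the threshold, 36 lost and 29 gained a call, and 7 turned direction, none of them called. The 7 were FAS in HKC-8 cells (log2 -0.15 to 0.27 over the samples left out) without normoxia replicate 2 (-0.04) or hypoxia replicate 1 (-0.15), BBC3 in HepG2 cells (-0.06 to 0.05) without hypoxia replicate 1 (-0.06), the HepG2 minus HKC-8 difference of RRM2B (-0.10 to 0.05) without HKC-8 normoxia replicate 2 (0.05), HKC-8 hypoxia replicate 3 (0.02) or HepG2 normoxia replicate 1 (0.05), and the RCC4+VHL minus HKC-8 difference of MDM2 (-0.03 to 0.11) without HKC-8 normoxia replicate 1 (-0.03). In 1 fit of all 18 samples, HKC-8 cells had 4 of the 9 genes higher and 10 other p53 targets higher and 7 lower, RCC4+VHL cells had 0 of the 9 higher and 6 other targets higher and 4 lower, HepG2 cells had 3 of the 9 lower, and 6 responses were more negative in HepG2 than in HKC-8 cells. With DESeq2, 5 other targets were lower in HKC-8 cells, and 5 responses were more negative in HepG2 than in HKC-8 cells. The shares of all genes called in the joint fit and with DESeq2 are not given. These counts thus describe the settings and are not a result about the 9 genes. When the replicate number was a block, 21% of all genes were higher and 21.6% lower in HKC-8 cells. Of all responses, 11% were more positive and 9.05% more negative in HepG2 than in HKC-8 cells. The replicate block gave 4 of the 9 higher in HKC-8 cells with 10 other targets higher and 8 lower, and 1 response more positive and 6 more negative in HepG2 than in HKC-8 cells. In HepG2 cells, whose numbers were not taken as paired, it added RRM2B (adjusted p = 0.03). It changed no call of the 9 in RCC4+VHL cells.

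With 1 sample left out, HKC-8 cells had 0 to 2 of the 9 higher and 0 to 1 lower, and 3 to 8 other targets higher and 0 to 6 lower. HepG2 cells had 3 to 6 of the 9 lower and 17 to 22 other targets lower. Responses more negative in HepG2 than in HKC-8 cells numbered 2 to 6, those more positive in RCC4+VHL than in HepG2 cells 2 to 4 and more negative 0 to 1, and normoxic levels lower in RCC4+VHL than in HKC-8 cells 0 to 1. The cause of these changes was not tested, and the shares of all genes called with 1 sample left out are not given. The counts of the 9 in RCC4+VHL cells were 2 higher and 3 lower with each sample left out. In HKC-8 cells GDF15 rests on 29 to 99 reads a sample.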
